A study of Mus musculus with 12 samples.

Results

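The question was which genes of the mandibular lymph node changed differently after ear challenge in mice lacking miR-451a (knockout, KO) and in wild-type mice (WT). For each gene the challenge change in the knockout minus that in wild type was tested over all 12 RNA-seq libraries, and is called the difference below. Of 20034 genes tested, 422 differed, with 334 higher and 88 lower in the knockout's change. The lists of salivary gland and epithelial genes held 38 of those called higher, with a median difference of 4.86 (log2). Of these 38, 36 fell in wild type and none fell in the knockout. Of all 334 called higher, 323 changed in wild type, so these counts describe genes chosen by the difference. In no list were 289 of the 334. Of 339 tested immune genes 12 differed, 3 higher and 9 lower, where 1.67% of all genes tested were called higher and 0.439% lower: B cell and immunoglobulin light chain genes, Il17a and Plac8 were lower in the knockout's change, and Cd3e, Xbp1 and Sox13 were higher.

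Each of 4 groups held 3 libraries of total RNA. All mice, wild type and knockout, had been sensitized with the contact allergen DNFB (0.5%, 100 µl on the shaved abdomen on days 0, 1 and 2). Groups WT_se and KO_se were sensitized only and harvested on day 9, per the series' design. Groups WT_DTH and KO_DTH also had 20 µl of 1% DNFB on the left ear on day 9 and were harvested on day 10. Challenge and the later day of harvest cannot be told apart. The labels describe the knockout only as mice without miR-451a, and they give no strain, age, sex or number of animals per library, so p-values reflect variation between libraries, which may be technical. The gene of miR-451a itself was not analysed here.

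MiR-451a is a microRNA best known from red blood cells, and it is also found in other blood cells and in vesicles. In contact hypersensitivity, hapten applied to skin primes T cells in lymph nodes, and a second contact calls them back within a day. The node that drains the ear then receives dendritic cells and monocytes, shows an interferon response and holds back and activates lymphocytes. T cells and γδ T cells that make interleukin 17 (Il17a, Il17f) drive neutrophil inflammation of the skin. The mandibular nodes lie against the submandibular and sublingual salivary glands, whose serous, mucous and duct cells make secretory proteins in very large amounts.

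Depth was 36.9 to 58.4 M (mega) counts per library. Levels are given as CPM, the counts of a gene for each M counts of its library after scaling between libraries. Sizes of change are log2 values ± SE, and a gene was called at an adjusted p under 0.05 (edgeR's quasi-likelihood test with Benjamini-Hochberg adjustment over all 20034 genes, two-sided). Node identity was plain in all groups, with Cd3e at 98.4 to 199 CPM and Ms4a1 at 175 to 379 CPM. Libraries of 1 group differed well beyond counting noise, and the Y-linked Ddx3y exceeded Xist in 2, 1, 2 and 1 of the 3 libraries of WT_se, WT_DTH, KO_se and KO_DTH. The part of sex in any result was not tested.

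Salivary genes made up a large share of all counts. Over 3 lists of salivary genes (50 genes of serous cells, of demilune and sublingual cells, and of duct granules) the share of a library's counts was 7.46, 10.7 and 15.1% in WT_se. It was 2.43, 3.53 and 2.17% in WT_DTH. In the knockout it was 4.46, 2.95 and 7.14% before challenge and 9.25, 10.6 and 4.32% after it. The wild-type groups did not overlap, whereas the knockout groups did. The mean share fell by 8.37 percentage points in wild type, from 11.1 ± 3.82% to 2.71 ± 0.721% (SD, n = 3). In the knockout it was 4.85 ± 2.12% and 8.06 ± 3.30%, 3.20 points higher after challenge. The difference of these changes was 11.6 points (exact two-sided permutation test of genotype within state, p = 0.005, the smallest that 400 permutations can give). Shuffling genotype within state assumes no genotype effect in either state, so this p is not an exact test of equal challenge changes. The salivary lists were chosen with earlier results of these data known. In such bulk samples, fewer cells of a type and less RNA per cell cannot be told apart. How the nodes were separated from the adjoining glands is not given in the sources used here, and the part of gland tissue taken along with a node in this share, and in the gland genes below, was not tested.

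**Figure D1:**
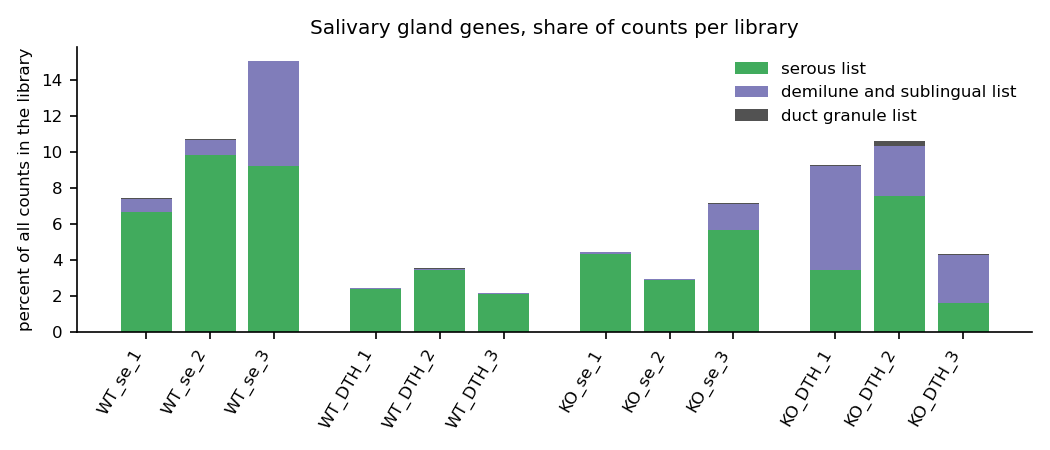
Percent of each library's counts (vertical axis) in the serous (green), demilune and sublingual (purple) and duct granule (dark grey) gene lists, stacked, 1 bar per library. The 3 WT_DTH bars end between 2.17 and 3.53% and hold almost no demilune RNA, and the 3 KO_DTH bars hold 2.66 to 5.77% of it.

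The kind of salivary RNA differed between libraries as well as its amount. Serous genes alone gave a smaller difference of 5.86 points (p = 0.035 by the same permutation test, with the same limits). Their mean share in the knockout was 4.30 ± 1.39% before and 4.22 ± 3.03% after challenge. Demilune and sublingual genes stood at 0.0296 to 0.0646% of counts in WT_DTH and at 2.66 to 5.77% in KO_DTH. Their ratio to serous genes was 0.101, 0.0816 and 0.634 in WT_se, 0.0124, 0.0187 and 0.0307 in WT_DTH, 0.0192, 0.0182 and 0.259 in KO_se and 1.67, 0.367 and 1.63 in KO_DTH. Every KO_DTH library exceeded every KO_se library in this ratio, and every WT_DTH library lay below every WT_se library. The serous list itself held 2.10 to 3.46% in WT_DTH and 1.63 to 7.56% in KO_DTH, ranges that overlap.

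The Dcpp genes, which encode small secreted proteins of demilune cells, carried most of this. Dcpp1 (ENSMUSG00000096445) was at 1934, 2416 and 12763 CPM in WT_se, 204, 463 and 467 in WT_DTH, 722, 404 and 3194 in KO_se and 10855, 5925 and 4178 in KO_DTH. Dcpp2 was at 2684, 3248 and 24089 CPM in WT_se, 12.2, 24.3 and 25.8 in WT_DTH, 41.6, 19.05 and 5399 in KO_se and 21906, 11843 and 9113 in KO_DTH. The highest of the WT_DTH values lies far under the lowest of KO_DTH for both genes, and replicate 3 of KO_se stands apart from the other two libraries of its group. The difference was 6.19 ± 1.19 for Dcpp1 (adjusted p = 0.0287) and 11.88 ± 2.48 for Dcpp2 (0.0355), and Dcpp3 differed likewise at 10.83 ± 2.24 (0.0355). The 3 genes are close copies, so the split of reads between them is uncertain. Their starts show how close: the 120 bases before each RefSeq transcription start (GRCm38.p6, plus strand, chr17:23880756-23880875, chr17:23898602-23898721 and chr17:23917338-23917457) are given with capitals where a base of Dcpp2 or Dcpp3 differs from the aligned base of Dcpp1 or runs past the end of its window; a base missing from a copy is not marked.
Dcpp1: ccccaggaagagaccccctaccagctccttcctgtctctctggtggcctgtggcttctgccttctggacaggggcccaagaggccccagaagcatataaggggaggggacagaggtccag
Dcpp2: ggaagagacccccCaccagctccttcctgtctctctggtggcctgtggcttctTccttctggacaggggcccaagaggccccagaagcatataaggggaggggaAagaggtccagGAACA
Dcpp3: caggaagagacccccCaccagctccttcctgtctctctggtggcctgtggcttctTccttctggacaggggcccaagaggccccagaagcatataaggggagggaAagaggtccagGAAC
Over 250 bases before the start, Dcpp1 was 97.1% identical to Dcpp2 in 245 aligned bases and 98.0% identical to Dcpp3 in 246.

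Of the 96 tested genes in the 5 gland and epithelium lists, 38 differed, all higher in the knockout's change, where 2.11% of all genes tested were called (1.67% higher and 0.439% lower). In the serous list 6 of 21 tested genes differed, while 16 of the 21 fell in wild type (8.97% of all genes fell) and 0 in the knockout (3.86%). Among these, Aqp5, the water channel of acinar cells, was at 21.7, 30.3 and 52.8 CPM in WT_se, 7.78, 9.05 and 6.77 in WT_DTH, 12.3, 5.98 and 22.1 in KO_se and 38.1, 46.9 and 15.2 in KO_DTH. Its WT_DTH libraries were below all WT_se libraries, and in the knockout KO_DTH replicate 3 lay within the range of KO_se. The difference was 3.46 ± 0.67 (adjusted p = 0.0291), from a change of -2.15 in wild type and 1.31 in the knockout. Scgb2b27, a secretoglobin, differed by 7.02 ± 1.23 (adjusted p = 0.0237), and Lman1l, a lectin of the secretory pathway, by 7.69 ± 1.39 (0.0237). The most abundant serous gene, Bpifa2, did not pass: it was at 42982, 65253 and 58754 CPM in WT_se, 11579, 17905 and 10982 in WT_DTH, 26062, 15924 and 31456 in KO_se and 19936, 43625 and 7995 in KO_DTH, a difference of 2.01 ± 0.64 (adjusted p = 0.132). The salivary peroxidase Lpo (1.81 ± 0.68, 0.192) did not pass either. The median difference over the serous list was 2.19, against -0.014 over all genes tested.

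Duct genes fell in wild type, and single libraries stood far above the rest of their group for some of them. Of 14 tested kallikreins and growth factors of the granular ducts, 8 differed, and 3 of the 14 had 0 counts throughout WT_DTH. In wild type 11 of the 14 fell (8.97% of all genes fell), and in the knockout none was called in either direction. Egf, epidermal growth factor, was at 188, 21.02 and 33.3 CPM in WT_se, 6.69, 5.84 and 4.34 in WT_DTH, 7.85, 6.84 and 11.8 in KO_se and 16.8, 61.6 and 13.4 in KO_DTH. WT_se replicate 1 and KO_DTH replicate 2 were far above the rest. Klk1, glandular kallikrein, was at 313, 333 and 254 CPM in WT_se, 45.2, 59.4 and 70.05 in WT_DTH, 182, 199.7 and 157 in KO_se and 108, 2735 and 272 in KO_DTH, with KO_DTH replicate 2 again far above. Their differences were 5.64 ± 1.07 (adjusted p = 0.0281) and 4.90 ± 1.15 (0.0493). Prol1, a serous gene of the same kind of pattern, was at 209, 12.1 and 442 CPM in WT_se, 1.87, 3.21 and 1.83 in WT_DTH, 4.02, 1.87 and 6.41 in KO_se and 1.85, 2579.8 and 136 in KO_DTH. Its difference was 14.36 ± 2.71 (adjusted p = 0.0267). Prol1 fell in wild type (-6.58 ± 1.88, 0.0277), and its rise in the knockout (7.79 ± 1.95, 0.0249) rests on 2 of the 3 KO_DTH libraries. The Klk1b genes are near-identical copies, so their single values are uncertain.

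Genes that mark epithelial cells of any gland formed the largest group. In the gland epithelium list 19 of 40 genes differed and the median difference was 3.12. Krt18, a keratin of simple epithelia, was at 41.2, 45.2 and 119 CPM in WT_se, 6.48, 9.60 and 7.05 in WT_DTH, 23.4, 12.7 and 36.7 in KO_se and 88.0, 106 and 38.2 in KO_DTH. All WT_DTH libraries lay below all others, and each KO_DTH library lay above each KO_se library. Krt18 fell in wild type (-3.15 ± 0.50, adjusted p = 0.00115) and rose in the knockout (1.68 ± 0.47, 0.0411), a difference of 4.83 ± 0.68 (0.0237). Epcam, an epithelial adhesion molecule that some dendritic cells also carry, was at 23.1, 31.1 and 59.1 CPM in WT_se, 7.01, 9.47 and 7.52 in WT_DTH, 12.5, 9.64 and 23.8 in KO_se and 42.7, 45.5 and 19.6 in KO_DTH. Its difference was 3.47 ± 0.57 (adjusted p = 0.0237), and KO_DTH replicate 3 lay within the KO_se range. The tight junction gene Cldn7 (4.66 ± 0.68), the gland transcription factor Sox9 (4.43 ± 0.72) and Krt8, the partner of Krt18 (5.0 ± 0.92), differed with adjusted p of 0.0237, 0.0237 and 0.0244. Slc12a2, the chloride cotransporter that drives saliva secretion, fell in wild type (-2.13 ± 0.34, 0.00125) and was at 0.42 ± 0.33 in the knockout (0.491), a difference of 2.56 ± 0.47 (0.0255).

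Of 13 myoepithelial and basal genes 2 differed. The smooth muscle actin Acta2, made by myoepithelial cells and by vessels, was at 7.14, 7.55 and 6.57 CPM in WT_se, 0.591, 1.03 and 0.844 in WT_DTH, 2.88, 2.09 and 3.27 in KO_se and 2.81, 8.55 and 3.91 in KO_DTH. It was at most 1.03 CPM in every WT_DTH library, and the knockout groups overlapped. The difference was 3.99 ± 0.53 (adjusted p = 0.0237), and Acta2 kept its call in 9 of 12 fits, each without 1 library. No called gene kept its call in more of these fits, and 2 of the 422 reached 9. The median was 4 fits for genes called higher and 3 for genes called lower.

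**Figure D2:**
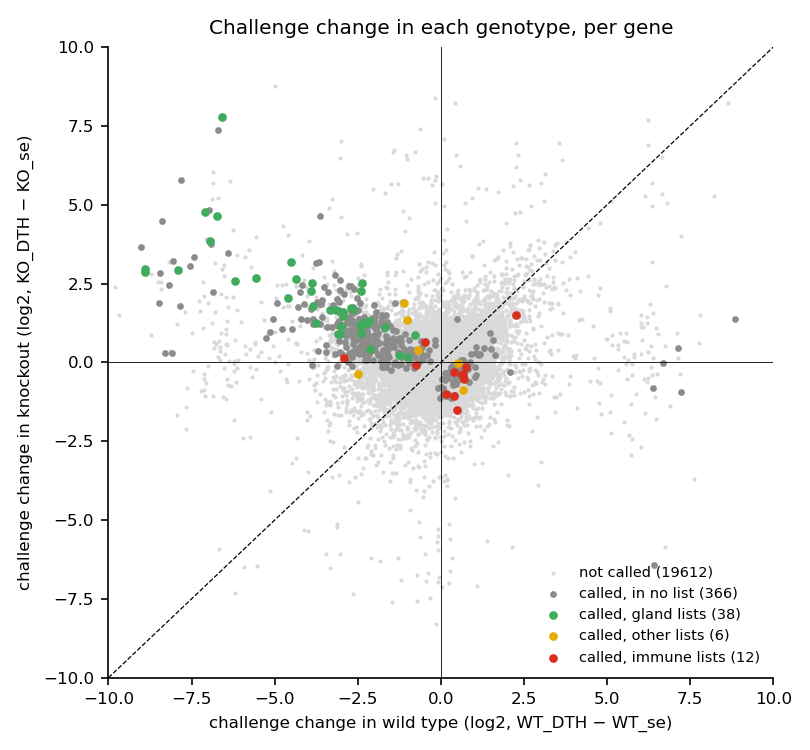
Challenge change in wild type (horizontal axis, log2) against that in the knockout (vertical axis, log2) for each gene tested. Called genes are coloured by the class of their list, and the dashed line marks equal change. The 38 gland genes lie above the line and left of 0, and the 12 immune genes lie nearer the centre. The axes run to 10 in each direction and 4 called genes fall outside.

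The 334 genes called higher had a median change of -2.43 in wild type and 0.91 in the knockout, and the 88 called lower had 0.52 and -0.34. These genes were chosen by the difference itself, so the medians describe the choice. The same holds for their genotype differences within each state. Of the 88 called lower, 75 also differed between genotypes in sensitized nodes and 2 in challenged nodes. Of the 334 called higher, 40 and 70 did. The share of all genes tested that differed between genotypes is not given here. The challenge changes of the 2 genotypes share no library: 3755 genes changed in wild type (18.7% of those tested) and 1938 in the knockout (9.67%). Both lists held 1181 genes, 31.5% of the first and 60.9% of the second, with 1156 in the same direction and 25 in opposite directions. At the threshold, Smco4 was just inside (adjusted p = 0.0498, difference 1.21), and Gng10 was just outside (0.0502, -0.67).

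Most called genes were in no list, 289 higher and 77 lower of 19429 tested. Among the higher ones of smallest p, Parva, an actin-binding protein of focal adhesions, was at 6.45, 7.71 and 8.55 CPM in WT_se, 1.39, 1.45 and 1.28 in WT_DTH, 2.18, 2.11 and 3.40 in KO_se and 6.83, 6.50 and 2.89 in KO_DTH. Palmd, a membrane-associated protein, was at 6.99, 9.43 and 26.8 CPM in WT_se, 1.11, 0.808 and 1.37 in WT_DTH, 2.52, 1.98 and 7.03 in KO_se and 18.6, 16.9 and 7.74 in KO_DTH. Both were lower in all 3 WT_DTH libraries than in any other library. Their differences were 3.54 ± 0.44 and 5.62 ± 0.82 (adjusted p = 0.0237 and 0.0237). The amino acid transporter Slc6a14 (5.96 ± 0.92, 0.0237) and the small heat shock protein Hspb8 (6.80 ± 1.08, 0.0237) had the same pattern, with all WT_DTH libraries at or below 0.455 CPM. Vwf, von Willebrand factor of endothelium, also differed at 2.29 ± 0.39 (0.0237). It is named after its values were seen, as are H2-Aa, H2-Oa and Tnfrsf13b below and Dcpp1, Dcpp2, Dcpp3, Aqp5, Egf and Klk1 above.

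Metallothioneins, small proteins that bind zinc and copper, differed upwards. Mt1 was at 17.5, 14.8 and 24.4 CPM in WT_se, 8.98, 10.2 and 8.86 in WT_DTH, 12.98, 12.1 and 12.2 in KO_se and 31.7, 42.6 and 19.5 in KO_DTH. The 3 KO_DTH libraries stood above all KO_se libraries, and the 3 WT_DTH libraries below all WT_se libraries. Mt1 fell in wild type (-1.01 ± 0.24, adjusted p = 0.0109) and rose in the knockout (1.33 ± 0.24, 0.00411), a difference of 2.34 ± 0.34 (0.0237). Mt2 was at 5.58, 4.53 and 9.57 CPM in WT_se, 2.23, 3.18 and 3.73 in WT_DTH, 4.95, 4.07 and 5.02 in KO_se and 11.1, 33.1 and 7.38 in KO_DTH, a difference of 2.98 ± 0.66 (adjusted p = 0.0396), with KO_DTH replicate 2 far above the others. They are part of a list of 12 genes that glucocorticoids induce, of which Klf9, a transcription factor, was the third to differ (1.08 ± 0.20, 0.0267); the list's median difference was 0.17. Metallothionein promoters are known for metal response elements, whose core is TGCACNC or TGCGCNC. The 250 bases before the start of Mt1 (chr8:94178839-94179088) and Mt2 (chr8:94172368-94172617, both GRCm38.p6 RefSeq, plus strand) are shown because the genes moved together, with core matches on either strand in capitals.
Mt1: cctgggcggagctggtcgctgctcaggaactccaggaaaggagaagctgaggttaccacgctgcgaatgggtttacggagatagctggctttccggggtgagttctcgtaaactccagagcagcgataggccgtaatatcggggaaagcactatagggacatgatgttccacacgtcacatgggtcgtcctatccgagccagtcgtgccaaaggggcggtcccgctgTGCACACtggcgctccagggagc
Mt2: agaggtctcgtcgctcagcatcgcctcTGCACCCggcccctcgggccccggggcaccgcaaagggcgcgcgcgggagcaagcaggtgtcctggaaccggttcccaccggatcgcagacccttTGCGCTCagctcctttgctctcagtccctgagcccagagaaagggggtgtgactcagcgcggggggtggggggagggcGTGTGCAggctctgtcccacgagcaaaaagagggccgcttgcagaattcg
Mt1 held 1 match and Mt2 held 3, where 21.4% of 32851 promoter windows of that length held 1 or more and 1.26% held 3 or more. A match is a description of the letters only. Bases outside these windows, those after the annotated start among them, were not searched.

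B cell genes were among those lower in the knockout's change. Of the 16 tested, edgeR called 2 and DESeq2 called 6, all lower, beside 88 and 393 of all 20034 genes. All 16 had a difference below 0, as did 10335 of all 20034, and the median of the 16 was -0.67. Cd79b, a signalling chain of the B cell receptor, was at 93.9, 81.95 and 94.2 CPM in WT_se, 139, 127 and 153 in WT_DTH, 177, 189.8 and 152 in KO_se and 109.8, 141 and 145 in KO_DTH. In wild type all challenged libraries were above all sensitized ones, and in the knockout all challenged libraries were below all sensitized ones. The difference was -1.02 ± 0.17 (adjusted p = 0.0237). Cd79b rose by 0.63 ± 0.12 in wild type (0.00324) and was at -0.39 ± 0.12 in the knockout, which did not pass (0.0582). Its level in the knockout minus that in wild type was 0.94 ± 0.12 (0.00172) in sensitized nodes. In challenged nodes it was -0.081 ± 0.12 (0.855). Ms4a1, the surface protein CD20, was at 223, 175 and 176 CPM in WT_se, 315, 277 and 311 in WT_DTH, 343, 379 and 312 in KO_se and 215, 281 and 309.6 in KO_DTH, a difference of -1.02 ± 0.19 (0.0282). The B cell kinase Blk, which is in the γδ T cell list because some of those cells use it, differed likewise (-0.90 ± 0.18, 0.0309). Ly86, in no list, which pairs with a Toll-like receptor relative on B cells, rose in wild type (1.17 ± 0.092, 1.97e-05) and was at 0.27 ± 0.091 in the knockout (0.0786), a difference of -0.90 ± 0.13 (0.0237). H2-Oa and H2-Aa, of class II antigen presentation, differed by -1.02 ± 0.21 (0.0337) and -0.82 ± 0.19 (0.0438), and the B cell receptor for survival factors Tnfrsf13b by -0.73 ± 0.17 (0.0476).

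In the plasma cell list 4 of 26 genes were lower and 1 was higher, beside 0.439% and 1.67% of all genes tested. Iglc2, a lambda light chain constant gene, was at 54.3, 43.6 and 50.2 CPM in WT_se, 57.4, 48.2 and 59.3 in WT_DTH, 102, 102 and 91.98 in KO_se and 37.7, 54.5 and 54.9 in KO_DTH. Every KO_se library stood above every other library, and the 3 other groups overlapped. Iglc2 fell in the knockout (-1.01 ± 0.14, adjusted p = 0.000715) and was at 0.16 ± 0.14 in wild type (0.504), a difference of -1.16 ± 0.19 (0.0237). Iglc1 had the same pattern (-1.45 ± 0.23, 0.0237), and reads of the lambda genes may be shared between copies. Mzb1, a chaperone of antibody secretion, differed by -1.23 ± 0.27 (0.038) and the transcription factor Irf4 by -0.69 ± 0.16 (0.0494). Xbp1, a transcription factor of all highly secreting cells, salivary acini among them, went the other way: it was at 206, 209 and 246 CPM in WT_se, 172, 170.4 and 135 in WT_DTH, 144, 106 and 114 in KO_se and 204, 207 and 164 in KO_DTH. It fell in wild type (-0.47 ± 0.14, 0.0304) and rose in the knockout (0.66 ± 0.14, 0.00975), a difference of 1.13 ± 0.19 (0.0237). The joining chain Jchain (-1.53 ± 0.60, 0.215) and the heavy chain Igha (-0.67 ± 0.61, 0.677) did not pass.

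Il17a was 1 of 16 type 17 genes to differ. It was at 0.345, 0.696 and 0.619 CPM in WT_se, 0.637, 0.606 and 1.07 in WT_DTH, 13.9, 21.2 and 29.1 in KO_se and 9.12, 6.94 and 6.46 in KO_DTH. The wild-type libraries had 12 to 61 counts each, and all 6 knockout libraries were above all 6 wild-type libraries; KO_DTH lay below KO_se without overlap. Il17a fell in the knockout (-1.51 ± 0.29, adjusted p = 0.00648) and was at 0.48 ± 0.36 in wild type (0.418). The difference of -1.99 ± 0.46 passed narrowly (0.0476) and passed in none of 12 fits without 1 library each, where it ranged from -2.22 to -1.70 (adjusted p = 0.0525 to 0.117). Its neighbour Il17f was at 1.24, 0.777 and 0.310 CPM in WT_se, 0.705, 1.27 and 2.14 in WT_DTH, 6.15, 10.8 and 17.1 in KO_se and 3.40, 3.04 and 3.52 in KO_DTH, a difference of -2.62 ± 0.69 that did not pass (0.0697). Il22 (-3.78 ± 1.05, 0.082) and the receptor chain Il23r (-0.57 ± 0.49, 0.659) did not pass, and the median over the list was -0.64. DESeq2 called 5 of the 16 lower, Il17f (adjusted p = 0.00326) and Il22 (0.0074) among them. Over all 20034 genes it called 393 lower.

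**Figure D3:**
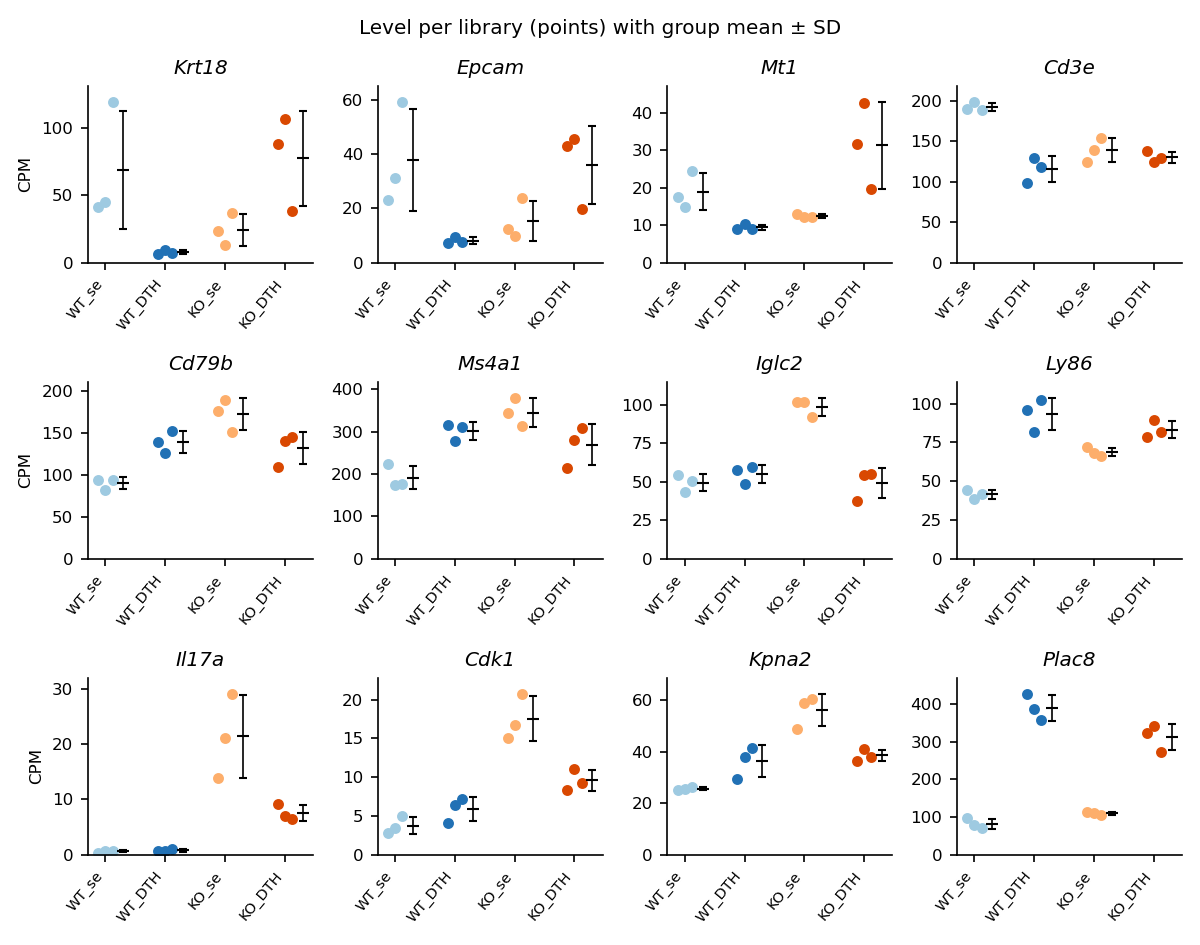
CPM (vertical axes, each from 0) of 12 called genes in each library, with the group mean and SD (n = 3) beside the points. Krt18, Epcam and Mt1 are lowest in WT_DTH, Cd79b, Ms4a1 and Ly86 are lowest in WT_se, and Iglc2, Il17a, Cdk1 and Kpna2 are highest in KO_se.

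Among other T cell genes, Cd3e, a chain of the T cell receptor complex, was at 191, 199 and 189 CPM in WT_se, 98.4, 129 and 119 in WT_DTH, 125, 139 and 154 in KO_se and 137, 125 and 129 in KO_DTH. The 3 WT_se libraries were above all others, and the other groups overlapped. Cd3e fell in wild type (-0.74 ± 0.10, adjusted p = 0.000485) and was at -0.096 ± 0.10 in the knockout (0.635), a difference of 0.64 ± 0.14 (0.0429). It was the only one of 22 genes of naive and resting T cells that edgeR called, and the median over them was 0.25. DESeq2 called 4 of the 22, all higher, beside 847 called higher of all 20034 genes. Differences were above 0 for 19, as for 9699 of all 20034, and 8 had an unadjusted p under 0.05 (16.0% of all genes tested did). In wild type 16 fell and 1 rose, and in the knockout 5 fell and 1 rose (8.97% and 3.86% of all genes fell). Lef1 (0.59 ± 0.14, 0.0518) and Cd27 (0.54 ± 0.13, 0.0538) came near the threshold. Sox13, a transcription factor of γδ T cells that epithelia also express, differed by 3.07 ± 0.73 (0.0495), while the γδ receptor genes Trdc (-0.30 ± 0.31, 0.735) and Tcrg-C1 (-0.26 ± 0.34, 0.797) did not pass. Sox13 was at 3.77, 3.35 and 11.2 CPM in WT_se, 0.933, 1.08 and 0.404 in WT_DTH, 7.54, 11.1 and 12.8 in KO_se and 16.1, 13.2 and 5.42 in KO_DTH.

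Proliferation genes had 2 calls among 40 by edgeR and 10 by DESeq2, all lower, beside 88 and 393 of all 20034 genes. All 40 differences were below 0, as were 10335 of all 20034, and their median was -0.83. Cdk1, the kinase of mitotic entry, was at 2.76, 3.48 and 4.95 CPM in WT_se, 4.09, 6.43 and 7.13 in WT_DTH, 15.04, 16.8 and 20.7 in KO_se and 8.32, 11.1 and 9.28 in KO_DTH. KO_se was the highest group, and KO_DTH lay between it and the wild-type groups. The difference was -1.53 ± 0.35 (adjusted p = 0.0435), from -0.87 ± 0.24 in the knockout (0.039) and 0.66 ± 0.25 in wild type (0.0869). Mcm2, of the replication helicase, differed by -0.54 ± 0.12 (0.0434), and Mki67 (-0.90 ± 0.33, 0.18) did not pass. With scaling on leukocyte genes Cdk1 (adjusted p = 0.0762) and Mcm2 (0.153) did not pass either. Kpna2, a nuclear import receptor in no list, was at 24.96, 25.5 and 26.1 CPM in WT_se, 29.4, 37.9 and 41.5 in WT_DTH, 48.9, 58.9 and 60.5 in KO_se and 36.5, 40.98 and 38.1 in KO_DTH, rising in wild type (0.51 ± 0.12, 0.0115) and falling in the knockout (-0.54 ± 0.12, 0.0132), a difference of -1.05 ± 0.17 (0.0237). Hmgb2, a chromatin protein abundant in dividing cells, differed by -0.79 ± 0.14 (0.0237). Nmral1, a redox sensor protein in no list, was at 2.65, 2.81 and 3.38 CPM in WT_se, 9.08, 9.07 and 9.00 in WT_DTH, 8.46, 9.51 and 9.17 in KO_se and 10.4, 11.1 and 10.1 in KO_DTH. Every WT_se library was below every other library, and the difference was -1.39 ± 0.20 (0.0237).

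All 28 type I interferon response genes rose in both genotypes (9.77% of all genes rose in wild type and 5.81% in the knockout), and edgeR called none of them different between the genotypes (0 of 28 by edgeR and 1 by DESeq2; 4 had an unadjusted p under 0.05, where 16.0% of all genes tested did). Stat2, a transducer of interferon signals, was at 35.4, 33.9 and 34.1 CPM in WT_se, 158, 127 and 142 in WT_DTH, 43.01, 34.5 and 27.1 in KO_se and 151, 148 and 117 in KO_DTH. The groups overlapped between genotypes in each state, and the difference was -0.05 ± 0.21 (adjusted p = 0.951). Stat2 was 1 of 2 members below 0: 26 of the 28 differences were above 0, where 9699 of all 20034 genes were, and the median was 0.49 (0.65 with scaling on leukocyte genes and -0.28 with the salivary score described below). The smallest p in the list was that of Ifi44 (1.64 ± 0.43, 0.071). Among 17 genes of the Th1 and interferon γ axis edgeR and DESeq2 called 0, and 1 had an unadjusted p under 0.05, with Ifng at -0.31 ± 0.45 (0.822) and its target Cxcl10 at -0.50 ± 0.27 (0.402). Of 22 inflammatory monocyte genes, edgeR called 1, Plac8, and DESeq2 called 3, all lower, beside 88 and 393 of all 20034 genes. Plac8 was at 97.3, 77.9 and 70.96 CPM in WT_se, 428, 389 and 358 in WT_DTH, 114, 109.5 and 106 in KO_se and 324, 342 and 273 in KO_DTH. It rose in wild type (2.25 ± 0.12, 1.34e-06) and in the knockout (1.51 ± 0.12, 3.29e-05), less in the latter by -0.74 ± 0.17 (0.0438). With scaling on leukocyte genes the adjusted p was 0.114; it was 0.13 once the library with the most salivary RNA was dropped from each group.

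Neutrophil genes gave the largest median shift among the immune lists, at -1.54, with 0 of 22 called by edgeR and 4 by DESeq2. All 22 differences were below 0, as were 10335 of all 20034. An unadjusted p under 0.05 was reached by 14 of the 22, beside 16.0% of all genes tested. Over all 20034 genes, edgeR called 88 lower and DESeq2 393. S100a8, an abundant neutrophil protein, was at 11.6, 26.2 and 21.1 CPM in WT_se, 85.6, 49.04 and 61.4 in WT_DTH, 92.8, 99.01 and 62.1 in KO_se and 40.5, 43.97 and 109 in KO_DTH. WT_se was the lowest group without overlap, and the other groups overlapped. The difference was -2.13 ± 0.53 (adjusted p = 0.0596), and for Camp, a granule peptide, it was -2.28 ± 0.57 (0.0599). Neither edgeR nor DESeq2 called any of 18 regulatory T cell and checkpoint genes, 18 germinal centre and follicular helper genes, 23 cytotoxic genes or 22 genes of resident node macrophages. Unadjusted p under 0.05 was reached by 0, 6, 1 and 5 of them, again beside 16.0% of all genes tested. Foxp3, the regulator of regulatory T cells, had a difference of 0.17 ± 0.16 (adjusted p = 0.697), and Cd209b, a lectin of marginal and sinus macrophages, one of -1.13 ± 0.45 (0.227).

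**Figure D4:**
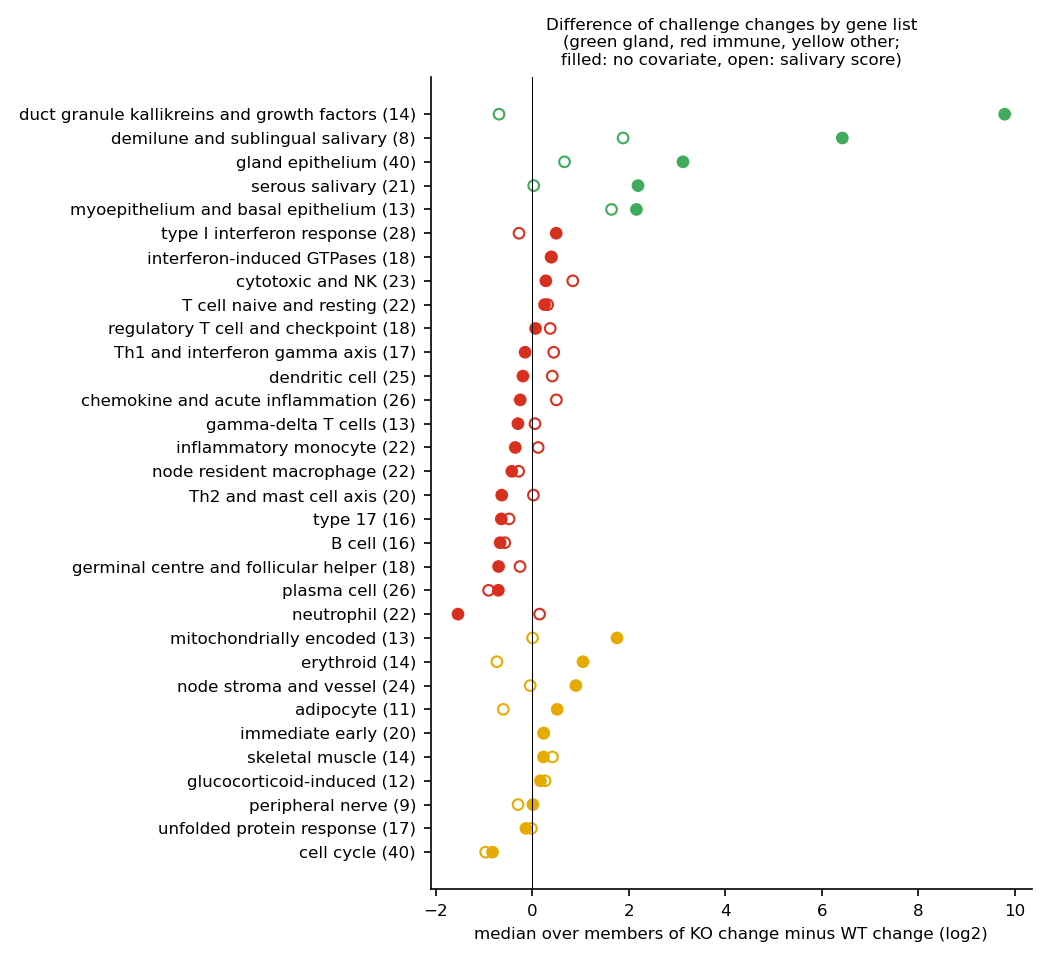
Median over the tested members of each gene list (number in brackets) of the knockout's challenge change minus that in wild type (horizontal axis, log2). Filled points are the medians without a covariate and open points those with the salivary score as covariate. The score is made of genes of the serous, demilune and duct lists, so their open points are not independent of it. The 5 gland lists have the 5 largest filled values, at 2.16 to 9.79, and the immune lists lie between -1.54 and 0.49. With genes whose group held 0 counts set to 3 counts over that group, the demilune median of 6.42 becomes 5.25 and the duct median of 9.79 becomes 9.48.

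Salivary content moved with these results and was set beside each of them in 1 further fit. The salivary score, the mean log2 CPM of 43 measured salivary genes, was added to the model as a covariate. No gene then passed (0 of 20034; 916 at an unadjusted p under 0.05; smallest adjusted p = 0.988), and the SE grew, from a median of 0.65 to 1.09 among the genes called higher and from 0.18 to 0.36 among those called lower. For the 38 gland genes the median difference went from 4.86 to 1.61. Among them, 6 serous, 3 demilune and sublingual and 8 duct genes are part of the score. For these a shift toward 0 was built into the fit. For the 9 immune genes called lower it went from -1.02 to -1.16. Cd79b stood at -1.10 ± 0.36, Ms4a1 at -1.16 ± 0.41, Iglc2 at -1.50 ± 0.40, Il17a at -1.80 ± 0.86 and Cd3e at 0.57 ± 0.29 with the score. Slc12a2 went to 0.34 ± 0.56, Mt2 to -0.15 ± 0.90 and the neutrophil gene S100a8 to 0.028, with the median of the neutrophil list at 0.15. The score was itself higher by 5.39 in the knockout's change, so with 3 libraries a group it overlaps the contrast and the precision of this fit is low.

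**Figure D5:**
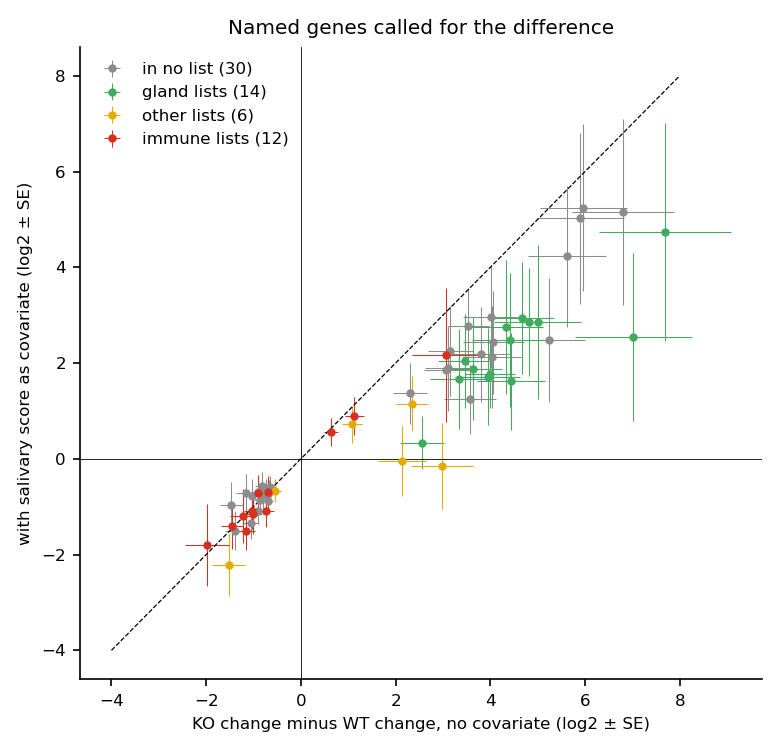
Difference of each of 62 named called genes without a covariate (horizontal axis, log2 ± SE) and with the salivary score (vertical axis, log2 ± SE); Prol1, at 14.4 without the score, is off the scale. Points on the dashed line are the same in both fits. Immune genes lie near the line, and most gland genes and unlisted genes called higher lie between the line and 0. The gland genes Scgb2b27 and Lman1l are themselves part of the score.

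Mitochondrially encoded transcripts fell in wild type too. Their share of counts was 19.1, 18.1 and 13.8% in WT_se, 4.37, 5.84 and 5.17% in WT_DTH, 16.0, 11.9 and 13.1% in KO_se and 10.05, 15.7 and 5.57% in KO_DTH. All 13 fell in wild type and none passed in the knockout, and mt-Nd4l, a subunit of respiratory complex I, was the 1 of 13 that edgeR called (2.14 ± 0.51, adjusted p = 0.0495; -0.037 with the score). DESeq2 called 12 of the 13 higher, where it called 847 of all 20034 genes higher. All 13 had an unadjusted p under 0.05 (16.0% of all genes tested did), and the median difference was 1.75. The part of this share in the other results was not tested.

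The number of genes called rested on single libraries. Leaving out 1 library at a time gave 0 calls without WT_DTH replicate 3, KO_se replicate 1 or KO_se replicate 2, 3 without KO_DTH replicate 1, 47 without WT_se replicate 3 or KO_DTH replicate 2, and 830 without KO_DTH replicate 3. All 422 genes kept their direction in each of these 12 fits, and none kept its call in all of them. Without the 4 libraries (1 per group) that held the most salivary RNA 168 genes were called, 126 of them among the 422. With libraries scaled on 15 leukocyte genes in place of all genes, a choice made after the data were seen, 463 genes were called, 431 higher and 32 lower, beside 334 and 88. That scaling moved the median difference of all genes from -0.014 to 0.142, and all 334 genes called higher and 32 of the 88 called lower kept their call. All 422 genes kept their direction under it.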

How the data were processed

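RNA of 12 mandibular node libraries was quantified by the authors. Per the submitters' processing notes, the tools were fastp 0.23.2, HISAT2 2.2.1 and StringTie 2.2.1 with build GRCm39. The deposited table holds estimated counts per gene for 56941 Ensembl IDs, all whole numbers, and 51948 IDs matched a symbol in the GRCm38 annotation used here. IDs without a symbol held 0.326 to 0.543% of counts.

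One edgeR 4.0.16 quasi-likelihood model (R 4.3.3) took the 4 group means over 12 libraries, with 8 residual degrees of freedom. TMM scaling was used, and filterByExpr with a minimum count of 10 kept 20034 genes. The contrast was the challenge change in the knockout minus that in wild type. Adjustment was by Benjamini-Hochberg at 0.05, two-sided, and SE was taken from the log2 value and its F. The procedure was tested on simulated data. DESeq2 1.42.0, limma 3.58.1, Python 3.11.15, pandas 2.3.3, matplotlib 3.10.9 and Biopython 1.88 were also used. CPM was computed with the scaled library sizes, and salivary scores used log2 CPM with a prior count of 2. Depth limits low genes, and counting intervals are small beside the spread between libraries.

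The members and the 33 gene lists (664 entries, 2 of them unmatched) were chosen with earlier results of these data known. The rule named 26 fixed genes and, among called genes by smallest p in each direction, 15 of gland lists, 20 of immune lists, 10 of other lists and 15 in no list. Outside the rule, the called genes Dcpp1, Dcpp2, Dcpp3, Aqp5, Egf, Klk1, Vwf, H2-Aa, H2-Oa and Tnfrsf13b were named with their values known. Smco4 and Gng10 were named for their place at the threshold. List members that did not pass were named too. Counts of named genes cover only those of the rule. Predicted genes, variable segments and unlisted genes with a highest group mean under 20 counts were left out of that choice. Alternatives were DESeq2 size factors and its Wald test, other filters, a block by replicate number, the salivary score as covariate, libraries left out, and scaling on 15 leukocyte genes, the last added after the data were seen. What a replicate number shared by groups stands for is not given in the labels. Promoter windows came from RefSeq on GRCm38.p6, where 315 of the 422 called genes had an entry. The single values of some members of these lists are not reported here.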

Additional observations from a re-analysis of the deposited data

Results flagged for a closer look

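The values below are for genes named by the rule above whose challenge change differed between the genotypes by a test of the difference itself. They are log2 values of the knockout's change minus that of wild type. Groups of 3 libraries are too small for a search for single outlying libraries.

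Gland genes were all higher in the knockout's change. Among genes of epithelial identity these were Krt18 (4.83), Krt8 (5.0), Cldn7 (4.66), Cldn10 (4.34), Epcam (3.47), Fxyd3 (4.42) and Prss8 (3.94). The transcription factors were Sox9 (4.43), Ehf (3.63) and Elf5 (3.33). Secretory and transport genes were Scgb2b27 (7.02), Lman1l (7.69), Prol1 (14.36) and Slc12a2 (2.56), and the contractile gene was Acta2 (3.99).

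Immune genes went both ways. Higher were Xbp1 (1.13), Cd3e (0.64) and Sox13 (3.07). Lower were the B cell genes Cd79b (-1.02), Ms4a1 (-1.02) and Blk (-0.90), the light chain genes Iglc1 (-1.45) and Iglc2 (-1.16), and Mzb1 (-1.23) and Irf4 (-0.69). Plac8 (-0.74) and Il17a (-1.99) were lower too.

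In the other lists Mt1 (2.34), Mt2 (2.98), Klf9 (1.08) and mt-Nd4l (2.14) were higher, and the cell cycle genes Mcm2 (-0.54) and Cdk1 (-1.53) were lower.

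Unlisted genes that were higher included the adhesion and cytoskeleton genes Parva (3.54), Wtip (4.01), Bcar1 (3.07), Sorbs2 (4.03) and Ptk7 (3.80). The carriers Slc6a8 (3.15) and Slc6a14 (5.96), the nuclear receptor Esrrg (5.23) and the mitochondrial transfer RNA mt-Tl2 (2.30) were among them. So were Palmd (5.62), Cadps2 (3.57), Frmpd1 (5.90), Mcc (3.11), Tmem98 (4.06) and Hspb8 (6.80).

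Unlisted genes that were lower included the nuclear transport genes Kpna2 (-1.05) and Xpo1 (-0.67), and the leukocyte genes Ly86 (-0.90), Lpxn (-0.86), Lat2 (-1.04) and Rnase6 (-1.15). Metabolic and transport genes among them were Nmral1 (-1.39), Mpc1 (-0.70), Slco4a1 (-1.47) and B3gnt5 (-0.90). The remaining ones were Rp2 (-0.69), Cpsf2 (-0.65), Snx8 (-0.82), Hmgb2 (-0.79) and Erlin1 (-0.74).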

How the results depend on the processing

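The count of 422 genes became 267 with no filter beyond a nonzero count, 1240 with the DESeq2 Wald test (68.3% higher, beside 79.1%), 168 without the 4 libraries of largest salivary share, and 0 with the salivary score (edgeR, the only tool run with it; 916 at an unadjusted p under 0.05). It ranged from 0 to 830 with 1 library left out, and the 3 fits with 0 calls had 3105, 3012 and 2797 genes at an unadjusted p under 0.05. Of the 63 named genes called, the Wald test kept all 63, scaling on leukocyte genes kept 56, leaving out the 4 libraries kept 35 and the salivary score kept 0, with only Mt2 (-0.15) and mt-Nd4l (-0.037) changing sign. The challenge count in wild type went from 3755 to 139 with the score and to 2464 without the 4 libraries. That in the knockout went from 1938 to 2984 with the Wald test, 931 with the score and 673 without the 4 libraries. With 1 library left out these counts ranged from 2566 to 3890 and from 1039 to 2035. The causes of these shifts were not tested.

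With a replicate block 128 genes were called, and 48 of the 63 named genes kept their call. Same-numbered libraries of different groups had a median correlation of 0.0031 in their deviations from group means (18 pairs, -0.098 to 0.141), and other pairs -0.0039. Of the 12 libraries, 8 correlated best with one of their own number. With 3 libraries a group, these values cannot settle whether the shared numbers pair the libraries.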

Other observations

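Of 24 genes of node stroma and vessels 0 were called by edgeR and 3 by DESeq2, which called 1240 of all 20034. An unadjusted p under 0.05 was reached by 8 (16.0% of all genes tested did). Differences were above 0 for 18, as for 9699 of all 20034. The median difference of the 24 was 0.90 (-0.04 with the salivary score). The matrix gene Sparc stood at 2.02 ± 0.50 (adjusted p = 0.0563). Among 14 erythroid genes neither tool called any, with 0 at an unadjusted p under 0.05 and a median of 1.05. Of 26 chemokine and inflammation genes edgeR called 0 and DESeq2 called 3, with 5 at an unadjusted p under 0.05 and a median of -0.25. The aryl hydrocarbon receptor Ahr, a sensor of ligands in type 17 cells, was at 29.9, 33.3 and 36.2 CPM in WT_se, 61.3, 71.4 and 74.2 in WT_DTH, 40.3, 46.9 and 40.3 in KO_se and 47.4, 56.5 and 63.04 in KO_DTH. It was higher in every challenged library than in every sensitized library of both genotypes, and its difference of -0.67 ± 0.17 did not pass (0.057).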
